A study of Mus musculus with 18 samples.

Results

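The RNA of 8 ADAMTS genes, Adamts1, Adamts2, Adamts4, Adamts5, Adamts9, Adamts10, Adamts12 and Adamts15, was followed in mouse ovarian follicle cells through ovulation. The genes were taken by their names, as a set drawn up with earlier results of these data known, and are 8 of the 41325 entries of the deposited count table, which holds 19 Adamts genes. All 8 passed the filter on low counts, which left 19941 genes for testing. The cells were mural granulosa cells, which line the follicle wall, and cumulus cells, which surround the oocyte. Per the labels, both came from the ovary of animals of genotype WT, and every group carries an hCG label with its time: 0, 4 or 12 h. Human chorionic gonadotropin (hCG) acts on the luteinizing hormone receptor and triggers ovulation. Each of the 6 groups had 3 libraries. The sources used here do not give the strain, the age, the priming before hCG or the number of animals per library.

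ADAMTS proteins (a disintegrin and metalloproteinase with thrombospondin motifs) are secreted zinc proteases of the extracellular matrix. They are made with a prodomain that furin-like convertases remove, and tissue inhibitors of metalloproteinases (TIMPs) block several of them. In the ovulating follicle the family is best known for ADAMTS1, which cuts versican, a proteoglycan of the hyaluronan matrix that forms around the oocyte, and which mice need for normal ovulation. ADAMTS4, ADAMTS5, ADAMTS9 and ADAMTS15 also cut versican or aggrecan. ADAMTS2 trims the amino-terminal propeptide of fibrillar procollagens, ADAMTS10 binds fibrillin in microfibrils, and ADAMTS12 can cut the cartilage oligomeric matrix protein COMP.

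All 8 are protein-coding genes in the reference annotation (GENCODE M21, build GRCm38). Adamts1 (ENSMUSG00000022893.14) is on chromosome 16 at 85793827 to 85803113, minus strand, and Adamts5 (ENSMUSG00000022894.6) lies 53.1 kb away at 85856173 to 85901828, also on the minus strand. No protein-coding gene is annotated between them. Adamts4 (ENSMUSG00000006403.13) is on chromosome 1 at 171250421 to 171260637, plus strand. Adamts9 (ENSMUSG00000030022.14) is on chromosome 6 at 92772699 to 92943492, minus strand. Adamts15 (ENSMUSG00000033453.8) is on chromosome 9 at 30899155 to 30922452, minus strand, 20.1 kb from Adamts8. Adamts2 (ENSMUSG00000036545.8) is on chromosome 11 at 50602084 to 50807573, plus strand. Adamts10 (ENSMUSG00000024299.17) is on chromosome 17 at 33524204 to 33553782, plus strand, and Adamts12 (ENSMUSG00000047497.10) on chromosome 15 at 11064790 to 11349231, plus strand. Exons of Adamts9 overlap exons of genes on the opposite strand, whose values stand beside its own.

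Promoter windows in the RefSeq table, which run from 250 bases before to 50 bases after an annotated start (GRCm38.p6), matched 4 of the members. They are shown because Adamts1 and Adamts9 rose after hCG while Adamts2 and Adamts12 fell in mural cells, so that both directions can be read against sequence. They lie at chr16:85803064-85803363 (Adamts1, minus strand), chr6:92943485-92943784 (Adamts9, minus strand), chr11:50601835-50602134 (Adamts2, plus strand) and chr15:11064523-11064822 (Adamts12, plus strand). Capitals mark the letters GGGCGG, the GC box bound by Sp1-type factors, on either strand.
Adamts1: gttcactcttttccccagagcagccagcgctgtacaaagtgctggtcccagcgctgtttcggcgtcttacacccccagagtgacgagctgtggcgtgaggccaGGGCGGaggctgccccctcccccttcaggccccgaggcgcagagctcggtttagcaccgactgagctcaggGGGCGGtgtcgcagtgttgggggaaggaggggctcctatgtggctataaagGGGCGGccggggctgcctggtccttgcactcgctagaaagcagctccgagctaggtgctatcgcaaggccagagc
Adamts9: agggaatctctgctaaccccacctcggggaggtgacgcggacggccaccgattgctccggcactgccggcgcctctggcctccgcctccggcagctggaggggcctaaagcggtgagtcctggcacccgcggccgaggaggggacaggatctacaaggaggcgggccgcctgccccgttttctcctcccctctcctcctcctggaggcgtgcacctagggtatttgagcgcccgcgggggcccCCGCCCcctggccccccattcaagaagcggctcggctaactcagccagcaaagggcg
Adamts2: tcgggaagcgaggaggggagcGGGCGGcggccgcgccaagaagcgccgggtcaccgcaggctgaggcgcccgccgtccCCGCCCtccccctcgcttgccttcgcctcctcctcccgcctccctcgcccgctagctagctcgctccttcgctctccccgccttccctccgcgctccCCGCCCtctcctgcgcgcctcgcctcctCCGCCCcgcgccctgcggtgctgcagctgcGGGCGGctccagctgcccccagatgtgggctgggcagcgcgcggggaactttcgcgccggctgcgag
Adamts12: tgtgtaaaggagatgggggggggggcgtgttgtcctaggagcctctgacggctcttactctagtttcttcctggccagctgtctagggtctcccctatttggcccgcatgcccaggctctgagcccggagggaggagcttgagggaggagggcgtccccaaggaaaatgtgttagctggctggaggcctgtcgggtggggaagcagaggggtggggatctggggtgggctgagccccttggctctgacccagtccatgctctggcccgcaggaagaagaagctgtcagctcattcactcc
Guanine and cytosine made up 64.7% of the Adamts1 window, 70.0% of that of Adamts9, 77.3% of that of Adamts2 and 62.0% of that of Adamts12, against a median of 52.7% over the 32851 windows in the table. The GC box occurred 3 times in the Adamts1 window, 5 times in that of Adamts2, once in that of Adamts9 and not in that of Adamts12. It is present in 35.7% of all windows. The other motifs searched on both strands had no match in these 4 windows: AP-1 (TGANTCA, in 7.81% of all windows), the cyclic AMP response element (TGACGTCA, 1.79%), C/EBP (TTGCNNAA, 10.8%), RUNX (TGTGGT, 16.8%), the progesterone or glucocorticoid receptor element core (TGTTCT, 19.0%), SF-1 and LRH-1 (AAGGTCA, 4.72%) and the hypoxia response core (ACGTG, 19.6%). A match or its absence describes the letters of a window and not the binding of a factor. Risers and fallers did not separate by these letters, since Adamts1 and Adamts2 held several GC boxes each.

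Libraries held between 32.2 M and 47.9 M counts (M, mega). Levels are counts per M counts of scaled library size (CPM), and a library with a count of 0 could by counting error still hold a level worth 3 counts, which is 0.0585 to 0.0999 CPM. The cell-type field of the labels names mural cells for 8 of the 9 samples titled cumulus and none for the other, so groups follow the titles. The summed level of 3 mural markers, Lhcgr, Nppc and Cyp11a1, was 1453 to 5549 CPM in the mural libraries and 18.8 to 381 CPM in the cumulus libraries. The sum of 7 granulosa markers was 3424 to 15869 CPM in mural and 2055 to 8238 CPM in cumulus libraries and was lowest at 12 h in both. The sum of 10 oocyte markers was 119.7 to 566 CPM in mural libraries. In cumulus libraries it was 349.6, 1703 and 1787 CPM at 0 h, 2014, 1028 and 6414 CPM at 4 h, and 3.49 to 7.45 CPM at 12 h, where Zp1 was at 0. Replicate 1 of the cumulus cells at 0 h, which also had 12.8% mitochondrially encoded counts against 8.49 and 8.50% in the others, and replicate 3 of those at 4 h therefore stood apart. Results that change without them are given with both values.

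Adamts1 rose at both times in both cell types, and in mural cells at 12 h its RNA was far above every other group. In mural cells Adamts1 was at 168, 135 and 151 CPM at 0 h, at 417, 468 and 463 CPM at 4 h and at 4363, 4959 and 4822 CPM at 12 h. In cumulus cells it was at 37.2, 21.2 and 23.8 CPM at 0 h, at 85.2, 140.1 and 53.3 CPM at 4 h and at 226, 181 and 171 CPM at 12 h. The groups of a cell type did not overlap, and the cumulus libraries at 12 h were only slightly above the mural ones at 0 h. On the log2 scale the mural change ± SE was 1.57 ± 0.26 at 4 h (adjusted p = 8.50e-05) and 4.96 ± 0.30 at 12 h (adjusted p = 4.10e-10). From 4 to 12 h alone the mural change was 3.39 ± 0.28 (adjusted p = 4.41e-08). The cumulus change was 1.76 ± 0.26 at 4 h (adjusted p = 2.74e-05) and 2.81 ± 0.27 at 12 h (adjusted p = 8.76e-08). All adjusted p-values given without another tool are from the quasi-likelihood test of edgeR, adjusted by Benjamini and Hochberg's method over 19941 genes, and a gene under 0.05 is said to be called. In order of the mean, mural cells at 12 h (4715 ± 312 CPM, SD, n = 3) stood above mural cells at 4 h (449 ± 28.3), cumulus cells at 12 h (192 ± 29.3), mural cells at 0 h (151 ± 16.7), cumulus cells at 4 h (92.8 ± 43.9) and cumulus cells at 0 h (27.4 ± 8.55). Of neighbours in that order, only mural cells at 0 h and cumulus cells at 4 h overlapped. In RNA from bulk samples, fewer cells of a type and less RNA per cell cannot be told apart.

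Adamts4, an aggrecanase, was the member with the largest log2 change from 0 to 12 h in both cell types, starting from a low level. In mural cells Adamts4 was at 5.54, 5.01 and 5.55 CPM at 0 h, at 44.8, 57.0 and 51.6 CPM at 4 h and at 219.6, 266 and 287 CPM at 12 h. The cumulus libraries held 2.07, 2.12 and 2.73 CPM at 0 h, 4.94, 5.13 and 7.95 CPM at 4 h and 75.3, 58.2 and 64.5 CPM at 12 h. Its mural rise was already large at 4 h, while most of its cumulus rise fell between 4 and 12 h. The mural log2 change was 3.25 ± 0.18 at 4 h (adjusted p = 9.11e-11), 2.33 ± 0.17 from 4 to 12 h (adjusted p = 6.61e-09) and 5.58 ± 0.19 over the whole time (adjusted p = 4.32e-13). The cumulus log2 change was 1.37 ± 0.18 at 4 h (adjusted p = 6.85e-06), 3.46 ± 0.18 from 4 to 12 h (adjusted p = 7.82e-11) and 4.83 ± 0.19 over the whole time (adjusted p = 6.57e-13). In the order of means, cumulus cells at 4 h (6.01 ± 1.69 CPM, SD, n = 3) and mural cells at 0 h (5.37 ± 0.309 CPM) overlapped, and the other neighbours were apart.

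Adamts9, which cuts versican and aggrecan, rose in mural cells within 4 h, with no further change called there, and rose mainly between 4 and 12 h in cumulus cells. In mural cells Adamts9 was at 36.0, 33.0 and 35.9 CPM at 0 h, at 417, 464 and 416 CPM at 4 h and at 409, 462 and 461 CPM at 12 h. Cumulus levels were 29.9, 18.5 and 19.6 CPM at 0 h, 43.0, 50.4 and 24.3 CPM at 4 h and 203, 163 and 187 CPM at 12 h. The mural libraries of 4 and 12 h overlapped, as did the cumulus libraries of 0 and 4 h. The mural log2 change was 3.63 ± 0.22 at 4 h (adjusted p = 5.99e-10), and from 4 to 12 h it was 0.04 ± 0.20 (adjusted p = 0.919). The cumulus log2 change was 0.79 ± 0.21 at 4 h (adjusted p = 0.00417), 2.23 ± 0.21 from 4 to 12 h (adjusted p = 1.21e-07) and 3.03 ± 0.22 over the whole time (adjusted p = 1.87e-09). The cumulus rise at 4 h depended on the libraries and the fit. It was 1.29 without both cumulus libraries that stood apart (adjusted p = 6.37e-09), and it was not called when only those 2 groups were fitted (0.74, adjusted p = 0.114).

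The exons of Adamts9 overlap those of A730049H05Rik, a gene on the plus strand at 92816478 to 92847174 of chromosome 6. They share 1381 bases, 9.18% of the exonic length of Adamts9 and 36.9% of that of A730049H05Rik. Its level was 0.992 ± 0.488, 77.3 ± 7.79 and 145 ± 13.1 CPM (SD, n = 3) in mural cells at 0, 4 and 12 h and 0.226 ± 0.196, 1.42 ± 0.473 and 15.4 ± 2.69 CPM in cumulus cells. It rose with Adamts9 at 4 h and, unlike Adamts9, it was also called higher at 12 h than at 4 h in mural cells (log2 change 0.91 ± 0.27, adjusted p = 0.0135), a difference between the genes that was not tested itself. The strand setting of the counting is not stated in the sources used here, and reads from the shared bases cannot be assigned to either gene. Gm15737, which shares 424 exonic bases with Adamts9, was at no more than 0.367 CPM on average in any group.

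Adamts5, the other main aggrecanase, fell within 4 h in both cell types, when Adamts4 rose. In mural cells Adamts5 was at 120.3, 96.1 and 123 CPM at 0 h, at 31.6, 26.5 and 29.1 CPM at 4 h and at 54.9, 76.0 and 70.4 CPM at 12 h. In cumulus cells it was at 52.0, 41.4 and 42.6 CPM at 0 h, at 4.85, 6.10 and 5.23 CPM at 4 h and at 5.59, 5.39 and 3.46 CPM at 12 h. Mural cells thus regained part of the level between 4 and 12 h, and cumulus libraries of 4 and 12 h overlapped. The mural log2 change was -1.96 ± 0.17 at 4 h (adjusted p = 3.40e-08), then 1.21 ± 0.17 from 4 to 12 h (adjusted p = 1.65e-05), which left -0.76 ± 0.16 over the whole time (adjusted p = 0.00101). The cumulus log2 change was -3.07 ± 0.18 at 4 h (adjusted p = 2.32e-10) and -3.24 ± 0.18 at 12 h (adjusted p = 5.15e-11). From 4 to 12 h it was -0.16 ± 0.18 in cumulus cells (adjusted p = 0.444). Although Adamts1 and Adamts5 are neighbours on chromosome 16, Adamts1 was called higher and Adamts5 lower against 0 h in both cell types at both times.

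Adamts15, a further versican and aggrecan protease, was close to the limit of detection throughout. Mural libraries of 0 h had 30, 19 and 51 counts, those of 4 h had 13, 33 and 35, and those of 12 h had 7, 13 and 30. Cumulus libraries of 0 h had 0, 0 and 6 counts, those of 4 h had 3, 7 and 11, and those of 12 h had 9, 1 and 0. Its mean was highest in mural cells at 4 h (0.836 ± 0.349 CPM, SD, n = 3) and lowest in cumulus cells at 0 h (0.0460 ± 0.0796 CPM), and every pair of neighbours in the order of means overlapped. No change with time was called for Adamts15 in either cell type, with log2 changes between -0.97 ± 1.09 and 1.98 ± 1.16. Without replicate 3 of the cumulus cells at 0 h, which leaves that group with no count, the cumulus change was called at 4 h (5.93, adjusted p = 0.0193) and at 12 h (4.92, adjusted p = 0.0475), fitted values that are no bounds. At this depth even changes larger than their SE could go uncalled, as in cumulus cells at 4 h (1.98 ± 1.16, adjusted p = 0.165).

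Adamts2, the procollagen N-proteinase, fell after hCG, more in cumulus than in mural cells. In mural cells Adamts2 was at 294, 249.7 and 303 CPM at 0 h, at 207, 208 and 219 CPM at 4 h and at 191, 115 and 168 CPM at 12 h. The cumulus values were 308, 273 and 254 CPM at 0 h, 105, 143 and 64.3 CPM at 4 h and 54.9, 53.2 and 55.2 CPM at 12 h. The cell types overlapped at 0 h and the 12 h cumulus libraries were lowest, with no overlap between times within a cell type. The mural log2 change was -0.42 ± 0.21 at 4 h (adjusted p = 0.118) and -0.84 ± 0.21 at 12 h (adjusted p = 0.00377). The mural value at 4 h was called when only those groups were fitted (-0.42, adjusted p = 0.00209) and with library totals as the scale (-0.74, adjusted p = 0.00766). The cumulus log2 change was -1.42 ± 0.21 at 4 h (adjusted p = 2.83e-05), -0.93 ± 0.21 from 4 to 12 h (adjusted p = 0.00106) and -2.35 ± 0.22 over the whole time (adjusted p = 5.40e-08).

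Adamts10, the fibrillin-binding member, fell in both cell types. In mural cells Adamts10 was at 303, 298 and 298 CPM at 0 h, at 234, 197 and 219 CPM at 4 h and at 127, 97.7 and 115 CPM at 12 h. In cumulus cells it was at 246, 229 and 258 CPM at 0 h, at 173, 144 and 110.5 CPM at 4 h and at 124, 129 and 129 CPM at 12 h. The mural groups were apart at each time, and the cumulus libraries of 12 h lay within the range of those of 4 h. The mural log2 change was -0.47 ± 0.13 at 4 h (adjusted p = 0.00693), which was -0.79 with library totals as the scale, and -1.40 ± 0.13 at 12 h (adjusted p = 1.18e-07). The cumulus log2 change was -0.78 ± 0.13 at 4 h (adjusted p = 8.71e-05) and -0.94 ± 0.13 at 12 h (adjusted p = 7.07e-06). From 4 to 12 h it was -0.16 ± 0.13 in cumulus cells (adjusted p = 0.308), and -0.35 without replicate 3 of the cumulus cells at 4 h, where it was called (adjusted p = 0.00820). Without both cumulus libraries that stood apart it was -0.31 and also called (adjusted p = 0.0125).

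Adamts12, which can cut COMP, fell in mural cells and was not called changed in cumulus cells. In mural cells Adamts12 was at 27.7, 22.0 and 32.7 CPM at 0 h, at 16.2, 17.0 and 17.7 CPM at 4 h and at 5.67, 5.15 and 8.10 CPM at 12 h. Cumulus libraries were at 10.8, 8.90 and 11.3 CPM at 0 h, at 8.87, 11.8 and 11.1 CPM at 4 h and at 13.1, 12.8 and 14.4 CPM at 12 h. The cumulus libraries of 0 and 4 h overlapped and those of 12 h were all slightly higher. The mural log2 change was -0.69 ± 0.18 at 4 h (adjusted p = 0.00379), -1.43 ± 0.18 from 4 to 12 h (adjusted p = 8.11e-06) and -2.12 ± 0.19 over the whole time (adjusted p = 4.06e-08). The cumulus log2 change was 0.03 ± 0.18 at 4 h (adjusted p = 0.891) and 0.38 ± 0.18 at 12 h (adjusted p = 0.0706). By 12 h the order of the cell types had turned, with cumulus cells (13.5 ± 0.876 CPM, SD, n = 3) above mural cells (6.31 ± 1.57 CPM).

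**Figure D1:**
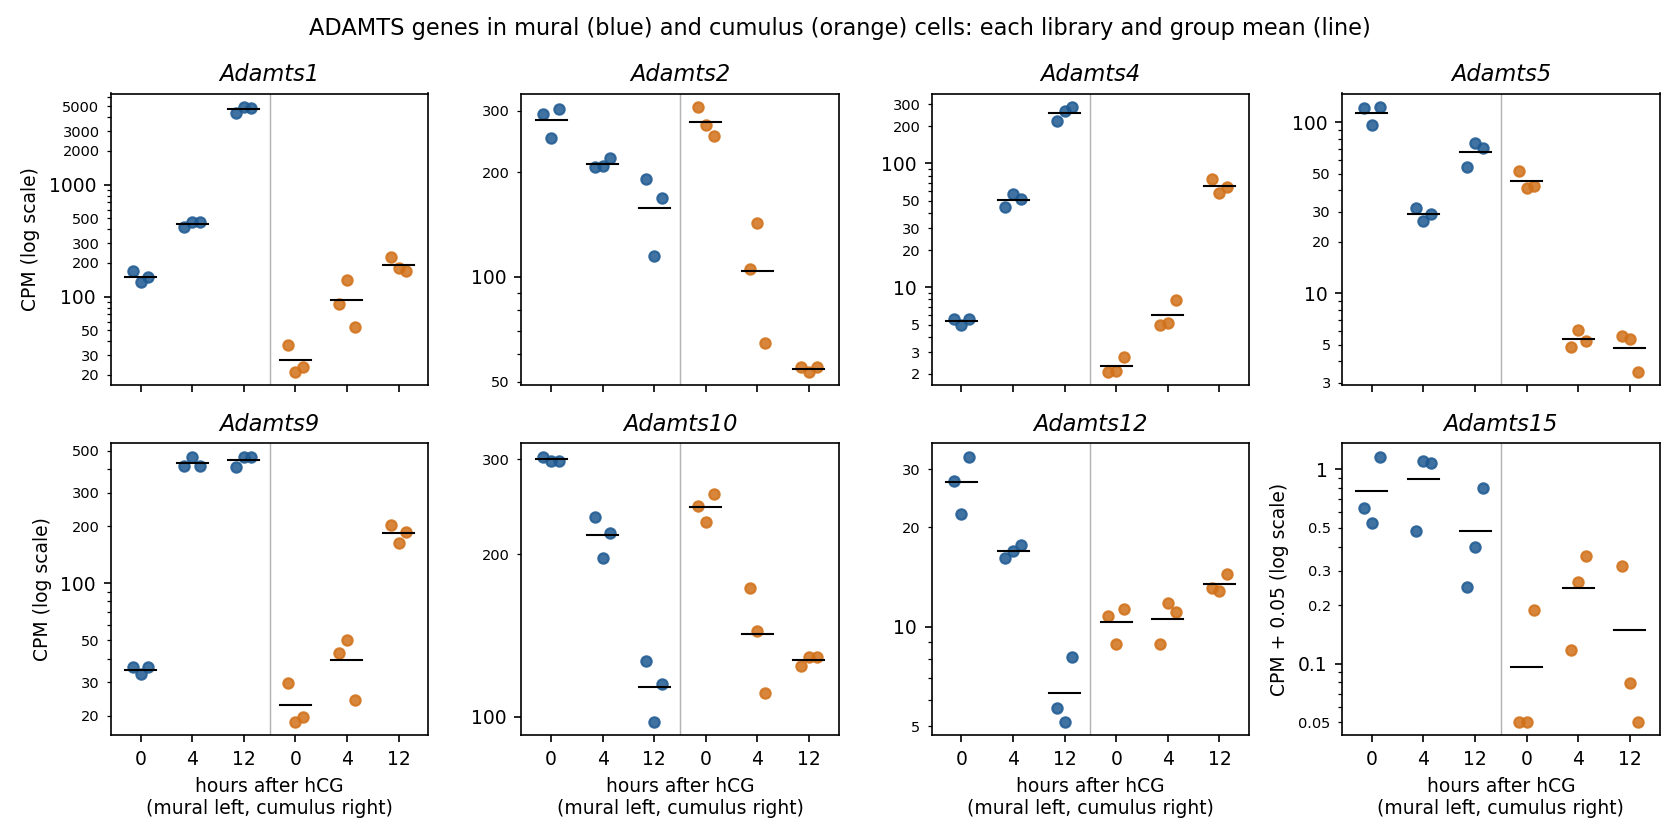
Each panel plots 1 ADAMTS gene in CPM on a log axis (CPM + 0.05 for Adamts15), with 3 libraries per group as points and the group mean as a line, mural cells in blue on the left and cumulus cells in orange on the right at 0, 4 and 12 h after hCG. Adamts1, Adamts4 and Adamts9 climb, Adamts2, Adamts5 and Adamts10 are lower after hCG, and Adamts12 falls in mural cells while its 3 cumulus libraries of 12 h lie between 12.8 and 14.4 CPM.

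Counted over the members, 3 were called higher and 3 lower in mural cells at 4 h, where 22.8% of all tested genes were called higher and 22.3% lower. At 12 h against 0 h in mural cells 3 were higher and 4 lower, against 21.6 and 19.0% of all genes, and from 4 to 12 h 3 were higher and 2 lower, against 18.3 and 16.1%. In cumulus cells 3 were higher and 3 lower at 4 h, where 25.0 and 22.8% of all genes were called. At 12 h against 0 h in cumulus cells 3 were higher and 3 lower, against 31.2 and 32.9%, and from 4 to 12 h 3 were higher and 1 lower, against 29.2 and 31.3%. A large share of all genes was thus called in every comparison over time, and with 8 genes nothing particular to the family is read from these counts. The members called higher against 0 h in either cell type were Adamts1, Adamts4 and Adamts9 at both times. The median log2 change of the 8 members was -0.11 in mural cells at 4 h and -0.75 at 12 h, against -0.06 and -0.05 over all genes. In cumulus cells the median was 0.41 at 4 h and 0.70 at 12 h, against 0.13 and -0.09.

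Markers of other cell types were read as sums over each list and gene by gene, and most sums that differed between times were carried by few genes. In mural cells the theca sum (5 genes) was 439 to 541 CPM at 0 h, 189 to 209.7 at 4 h and 148 to 160.4 at 12 h, with 2 of 5 genes called lower at 12 h against 0 h (Cyp17a1 from 114 to 4.73 CPM and Aldh1a1 from 269 to 50.1 CPM) and 0 higher. The mural endothelial sum (6 genes) was 32.4 to 52.2, 57.5 to 70.3 and 130.2 to 161 CPM. At 12 h only Cdh5 of that list was called higher (17.6 to 127 CPM), and the list's median log2 change was -0.40. The mural stroma and fibroblast sum (7 genes) was 54.3 to 106, 64.6 to 88.5 and 114 to 153 CPM. There Col15a1 was called higher (18 to 99.0 CPM), Ogn (12.4 to 4.15 CPM) and Tcf21 (7.82 to 2.43 CPM) lower, and the median was -0.92. The mural erythroid sum (5 genes) was 87.6 to 145, 448 to 699 and 379.5 to 732 CPM, and all 5 of its genes were called higher at 12 h, as were Adamts1, Adamts4 and Adamts9.

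In cumulus cells the endothelial sum was 9.56 to 18.4 CPM at 0 h and 164 to 201 CPM at 12 h. Cdh5 (4.01 to 164 CPM) and Kdr (0.386 to 20.6 CPM) were called higher, Pecam1, Tek and Tie1 lower, and the list's median log2 change was -1.73. The theca sum of 109.8 to 120.0 CPM at 12 h was mostly Ptch1 (108 CPM), with Cyp17a1 at 0.0704 and Insl3 at 0.0352 CPM. The stroma sum of 56.9 to 58.6 CPM at 12 h was mostly Col15a1 (54.8 CPM), with Dcn at 0.558, Lum at 0.0491 and Ogn at 0.0668 CPM and Tcf21 at 0. The surface epithelium sum (5 genes) was 24.2 to 29.9 CPM at 0 h and 190.2 to 207 CPM at 12 h, mostly the keratin gene Krt8 (153 CPM) and Krt18 (40.9 CPM), with Upk3b at 0.0645 CPM and Msln at 0. The erythroid sum was 8.71 to 17.7 CPM at 0 h and 17.9 to 109 CPM at 12 h. Of its 5 genes, 4 were called higher at 12 h and Alas2 lower (6.61 to 2.40 CPM). Leukocyte markers (5 genes) were at 3.24 to 15.4 CPM, neutrophil markers (3 genes) at no more than 2.85 CPM and smooth muscle and pericyte markers (5 genes) at 3.05 to 93.2 CPM over all libraries. The part of these cells in the changes of the ADAMTS genes was not tested.

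**Figure D2:**
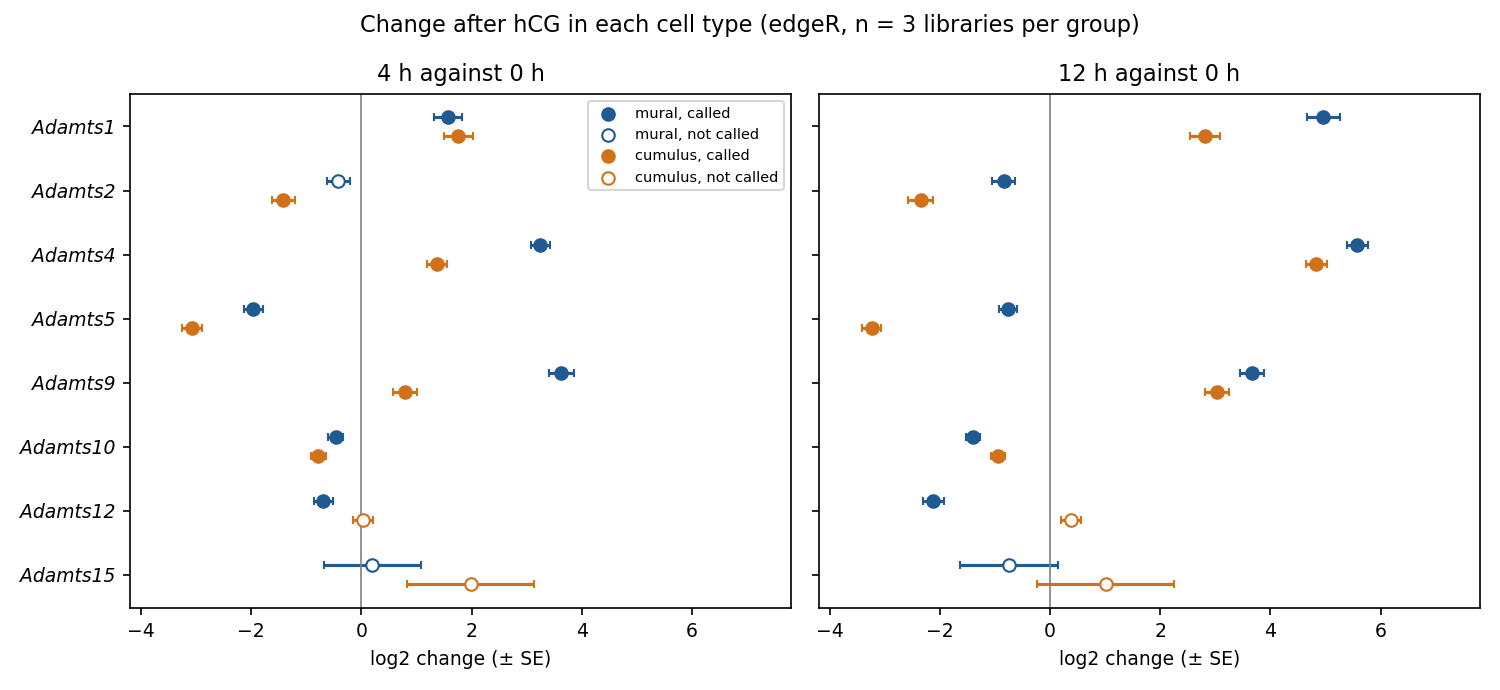
Log2 changes from edgeR (horizontal axis, ± SE, n = 3 libraries per group) for each ADAMTS gene at 4 h (left) and 12 h (right) against 0 h, in mural cells (blue) and cumulus cells (orange), with open points where the change was not called. Adamts4 is at 5.58 in mural and 4.83 in cumulus cells at 12 h, and Adamts5 at -0.76 and -3.24.

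Against mural cells, cumulus cells had less RNA of most members, with Adamts1, Adamts4, Adamts5 and Adamts9 called lower at all 3 times. At 0 h 6 members were called lower in cumulus cells and 0 higher, where 25.3% of all genes were lower and 21.5% higher. At 4 h 7 were lower and 0 higher, against 27.0 and 27.6%. No member was higher at 0 or 4 h at an unadjusted edgeR p under 0.05 either, nor by DESeq2 or limma voom. At 12 h 5 were lower and 1 higher, against 20.5 and 18%. The members' median log2 difference was -1.27 at 0 h, -2.19 at 4 h and -1.75 at 12 h, against -0.03, -0.01 and -0.07 over all genes. These shares of lower members were above those of all genes. The members were chosen with earlier results of these data known, so nothing particular to the family is read from these shares. Of the other ADAMTS genes, Adamts3, Adamts18 and Adamts19 were called higher in cumulus cells at 0 h and Adamts7, Adamts14 and Adamts20 lower. At 4 h Adamts18 and Adamts19 were higher and Adamts3, Adamts7, Adamts8, Adamts14, Adamts16 and Adamts20 lower. At 12 h Adamts6 and Adamts7 were higher and Adamts3 and Adamts20 lower. Adamts18 was at 1.38 ± 0.925, 3.76 ± 3.41 and 0.104 ± 0.0144 CPM (SD, n = 3) in cumulus cells at 0, 4 and 12 h. Like the sum of oocyte markers, its cumulus level was lowest at 12 h. The part of oocyte RNA in the Adamts18 differences was not tested.

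Adamts1 was lower in cumulus cells by a log2 difference of -2.47 ± 0.27 at 0 h (adjusted p = 1.19e-06), -2.28 ± 0.27 at 4 h (adjusted p = 2.69e-06) and -4.61 ± 0.29 at 12 h (adjusted p = 2.60e-09). Adamts4 differed by -1.22 ± 0.18, -3.09 ± 0.18 and -1.96 ± 0.16 at the 3 times, with adjusted p from 4.81e-10 to 3.43e-05, so its gap was widest at 4 h. Adamts5 differed by -1.32 ± 0.16, -2.43 ± 0.18 and -3.80 ± 0.19, with adjusted p from 1.41e-10 to 4.54e-06, a gap that grew with time. Adamts9 differed by -0.63 ± 0.21 at 0 h (adjusted p = 0.0193), -3.46 ± 0.22 at 4 h (adjusted p = 2.38e-09) and -1.27 ± 0.20 at 12 h (adjusted p = 1.01e-04). The difference at 0 h was not called without replicate 2 (-0.49, adjusted p = 0.0897) or replicate 3 (-0.53, adjusted p = 0.0801) of the cumulus cells at 0 h.

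Adamts2 did not differ by the test at 0 h, with a log2 difference of -0.02 ± 0.21 (adjusted p = 0.946), and was lower in cumulus cells by -1.02 ± 0.21 at 4 h (adjusted p = 6.41e-04) and -1.54 ± 0.21 at 12 h (adjusted p = 2.29e-05). Adamts10 was called lower in cumulus cells at 4 h (-0.60 ± 0.13, adjusted p = 9.14e-04, and -0.39 without replicate 3 of the cumulus cells at 4 h, adjusted p = 0.00532). At 0 h its difference was -0.29 ± 0.13 (adjusted p = 0.0745), which was called without the cumulus libraries that stood apart (-0.30, adjusted p = 0.0202), and at 12 h it was 0.17 ± 0.13 (adjusted p = 0.327). Adamts12 was lower in cumulus cells by -1.41 ± 0.18 at 0 h (adjusted p = 6.27e-06) and -0.68 ± 0.18 at 4 h (adjusted p = 0.00386), and higher by 1.09 ± 0.18 at 12 h (adjusted p = 1.31e-04). Its 4 h difference was -0.71 by limma voom and not called there (adjusted p = 0.0552). Adamts15 was called lower in cumulus cells at 0 h (-3.88 ± 1.10, adjusted p = 0.00823), from counts of 0, 0 and 6. Without replicate 3 of the cumulus cells at 0 h no count remained in that group, and the fitted value of -7.81 (adjusted p = 0.00244) is no bound. At 4 h the Adamts15 difference was -2.11 ± 0.96 (adjusted p = 0.0733). Without both cumulus libraries that stood apart it was -2.61 and called (adjusted p = 0.0363). Theca and stroma markers also differed between the cell types: at 0 h 5 of 5 theca and 7 of 7 stroma markers were called lower in cumulus cells, with summed levels of 52.7 to 65.6 and 3.81 to 5.78 CPM there against 439 to 541 and 54.3 to 106 CPM in mural cells, and Dpt at 0 in the cumulus libraries. At 4 h Cyp17a1 and Insl3, which define theca cells, were at 0 in cumulus cells. Their part in the ADAMTS differences was not tested.

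**Figure D3:**
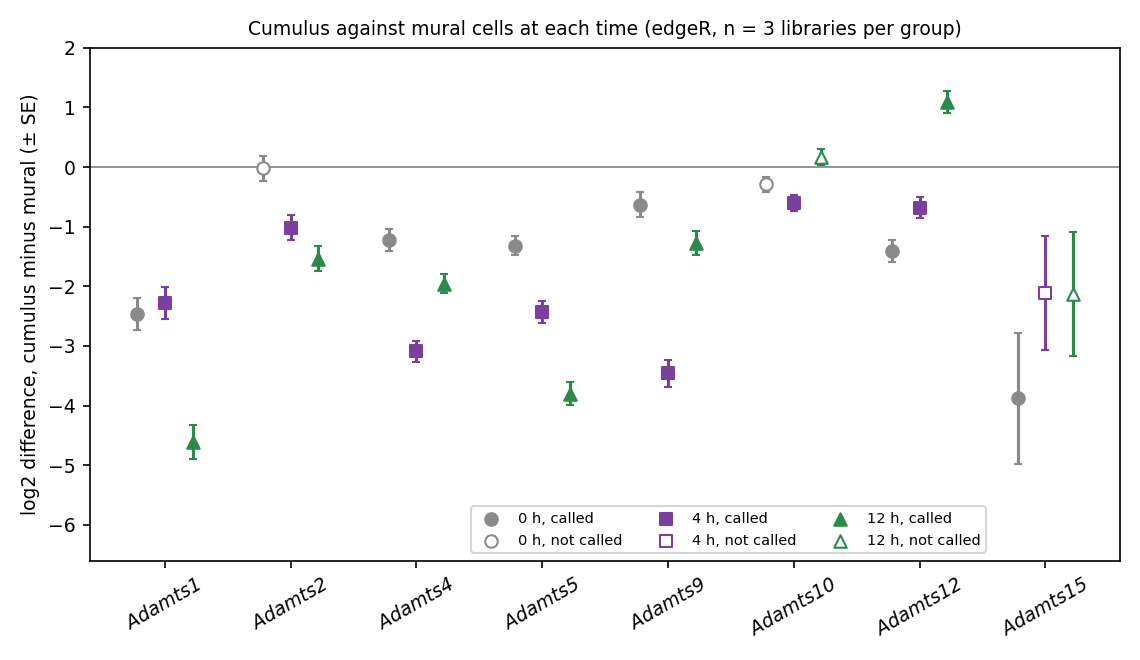
Log2 difference between cumulus and mural cells from edgeR (vertical axis, ± SE, n = 3 libraries per group) for each ADAMTS gene at 0 h (grey circles), 4 h (purple squares) and 12 h (green triangles), with open symbols where it was not called. Nearly all lie below 0, and Adamts12 crosses from -1.41 at 0 h to 1.09 at 12 h.

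The change with time differed between the cell types for several members, tested as the difference of the log2 changes (cumulus minus mural). For the change to 4 h, 0 members were called higher and 4 lower in cumulus cells, where 6.78% of all genes were called higher and 7.26% lower. Adamts9 differed by -2.83 ± 0.29 (adjusted p = 5.50e-06), Adamts4 by -1.88 ± 0.25 (adjusted p = 6.10e-05), Adamts5 by -1.11 ± 0.24 (adjusted p = 0.00390) and Adamts2 by -1.0 ± 0.30 (adjusted p = 0.0322). Adamts4 and Adamts9 thus rose less by 4 h in cumulus than in mural cells, and Adamts5 fell further. The Adamts2 call was lost in most alternatives, for example without both cumulus libraries that stood apart (-0.67, adjusted p = 0.0633), and that of Adamts5 by limma voom (-1.12, adjusted p = 0.163). For Adamts1 the difference was 0.19 ± 0.36 (adjusted p = 0.758). Without both cumulus libraries that stood apart that difference was 0.75 and called (adjusted p = 0.0341). The value for Adamts12 was 0.73 ± 0.25 (adjusted p = 0.0634), the 1 member higher at an unadjusted p under 0.05. DESeq2 called it (adjusted p = 0.0405) and limma voom called 0. For Adamts10 the difference was -0.31 ± 0.18 (adjusted p = 0.269) and for Adamts15 1.78 ± 1.44 (adjusted p = 0.427).

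For the change to 12 h, 1 member was called higher and 4 lower in cumulus cells, where 20.1% of all genes were called higher and 20% lower. Adamts12 differed by 2.50 ± 0.26 (adjusted p = 8.50e-07), the fall of mural cells having no counterpart of called size in cumulus cells. Adamts5 differed by -2.48 ± 0.24 (adjusted p = 4.24e-07), Adamts1 by -2.15 ± 0.36 (adjusted p = 1.82e-04), Adamts2 by -1.52 ± 0.30 (adjusted p = 6.50e-04) and Adamts4 by -0.75 ± 0.24 (adjusted p = 0.0200). The Adamts4 call was lost by limma voom (-0.74, adjusted p = 0.124), without replicate 3 of the cumulus cells at 0 h (-0.63, adjusted p = 0.0674) and without replicate 2 of those at 12 h (-0.66, adjusted p = 0.0552). Adamts9 differed by -0.64 ± 0.29 (adjusted p = 0.0880) and was called in several alternatives, as without both cumulus libraries that stood apart (-0.39). Adamts10 differed by 0.46 ± 0.18 (adjusted p = 0.0550), and without those libraries by 0.47, where it was called. Adamts15 differed by 1.76 ± 1.53 (adjusted p = 0.386). The members' median difference was -0.66 for the change to 4 h and -0.69 for the change to 12 h, against 0.07 and -0.05 over all genes. From 4 to 12 h the members' median change was -0.19 in mural and 0.09 in cumulus cells, against 0.01 and -0.04.

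Within cumulus groups several members had their extreme value in a library that stood apart. At 4 h replicate 3, with the most oocyte marker RNA, was lowest in Adamts1 (53.3 CPM), Adamts2 (64.3 CPM), Adamts9 (24.3 CPM) and Adamts10 (110.5 CPM) and highest in Adamts4 (7.95 CPM). At 0 h replicate 1, with the least oocyte marker RNA, was highest in Adamts1 (37.2 CPM), Adamts2 (308 CPM), Adamts5 (52.0 CPM) and Adamts9 (29.9 CPM). The part of oocyte RNA in these levels was not tested, and with 3 libraries a group no relation was computed.

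To compare levels between members, CPM were divided by each gene's exonic length in kb (the union of its annotated exons). On this scale Adamts10 (36.3 CPM per kb), Adamts2 (30.2) and Adamts1 (28.6) were the most abundant members in mural cells at 0 h, and Adamts2 (29.8) and Adamts10 (29.6) in cumulus cells at 0 h. In mural cells at 12 h Adamts1 was at 889 CPM per kb, followed by Adamts4 (53.5) and Adamts9 (29.5). In cumulus cells at 12 h Adamts1 was at 36.3 CPM per kb, Adamts10 at 15.5, Adamts4 at 13.7 and Adamts9 at 12.3. Adamts12 was between 0.577 and 2.51 CPM per kb and Adamts15 at no more than 0.0807 in any group. The sum of the 8 genes in mural cells was 112 ± 7.99 CPM per kb (SD, n = 3) at 0 h, 177 ± 5.84 at 4 h and 1009.8 ± 63.1 at 12 h. In cumulus cells it was 71.7 ± 5.54, 51.3 ± 15.2 and 85.3 ± 7.92 CPM per kb.

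As a share of that sum, Adamts1 went from 25.5% at 0 h to 47.8% at 4 h and 88.1% at 12 h in mural cells, and from 7.12 to 33.1 and 42.4% in cumulus cells. Adamts2 and Adamts10 together held the larger part before hCG, at 27.1 and 32.6% in mural and 41.5 and 41.4% in cumulus cells. At 12 h they were at 1.70 and 1.37% in mural and 6.88 and 18.2% in cumulus cells. Adamts9 peaked at 16.2% in mural cells at 4 h and was at 14.4% in cumulus cells at 12 h, where Adamts4 was at 16.1%. The shares depend on the gene length used. With the length of the longest annotated transcript Adamts1 was at 19.1, 37.7 and 85.0% in mural cells and at 4.96, 24.3 and 33.3% in cumulus cells, and Adamts10 was at 45.0 and 53.1% in the 2 groups of 0 h. In cumulus cells at 12 h that length turned the order of Adamts9 (19.5%) and Adamts4 (12.7%).

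**Figure D4:**
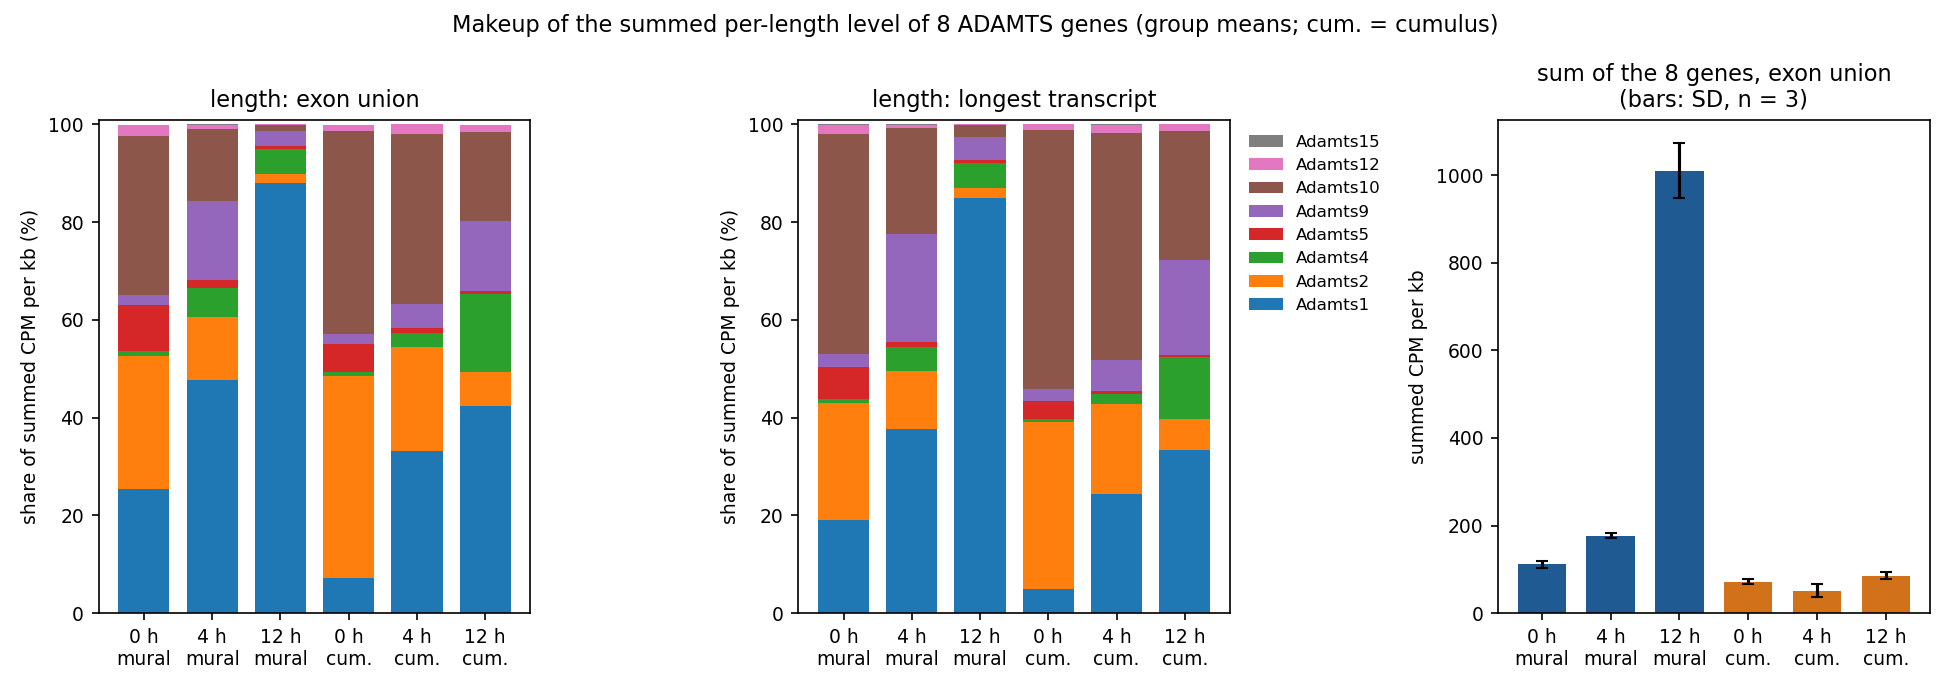
Stacked bars give the mean share (%) of each of 8 ADAMTS genes in their summed CPM per kb in each group, with gene length as the exon union (left) or the longest transcript (middle), and the right panel gives the sum itself (exon union, CPM per kb, ± SD, n = 3). Adamts1 fills 88.1% of the mural sum at 12 h, and the mural sum climbs to 1009.8 CPM per kb while the cumulus sum is between 51.3 and 85.3.

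Across the 18 libraries the 3 risers were more alike than the fallers. Both groups were named from changes in these same libraries, so likeness within them was in part built in. Pearson's r of log2(CPM + 0.5), a description over libraries that share groups and depth, was 0.94 for Adamts4 with Adamts9, 0.89 for Adamts1 with Adamts4 and 0.85 for Adamts1 with Adamts9. Among the fallers it was 0.83 for Adamts2 with Adamts5, 0.78 for Adamts2 with Adamts10, 0.69 for Adamts10 with Adamts12, 0.54 for Adamts5 with Adamts10, 0.28 for Adamts2 with Adamts12 and 0.18 for Adamts5 with Adamts12. For Adamts4 it was -0.67 with Adamts10 and -0.05 with Adamts5. The lowest values among the fallers were of pairs with Adamts12, which was not called changed in cumulus cells.

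Of 12149 tested genes with a group mean of at least 5 CPM, those most like each member by the same measure were named by rule. Adamts1 was followed by Jcad (r = 0.985), a junction protein gene, by Ptgs1 (0.976), which encodes cyclooxygenase-1, and by Smarca1 (0.975), a chromatin remodeller. Smarca1 was at 120.5, 338 and 1469 CPM in mural cells at 0, 4 and 12 h and at 91.0 CPM in cumulus cells at 12 h. Adamts4 was followed by Inpp5a (0.985), a phosphatase of inositol phosphates, Heg1 (0.983) and Lgmn (0.980), the protease legumain, with Heg1 at 72.7, 411 and 3278 CPM in mural cells. Adamts9 was followed by Iah1 (0.993), Fzd1 (0.991), a Wnt receptor, and Creb3 (0.988), a transcription factor. Fzd1 was at 16.0, 192 and 227 CPM in mural and at 9.25, 15.1 and 119 CPM in cumulus cells, the early mural and late cumulus pattern of Adamts9.

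Among the fallers, Adamts5 was followed by H2afy2 (0.969), a histone variant, and Abat (0.967), which breaks down GABA. Adamts2 was followed by Sned1 (0.974), Thumpd2 (0.965) and Snai2 (0.962), a transcription factor. Adamts10 was followed by Zbtb8a (0.959), Plcg1 (0.953), a phospholipase, and Btbd3 (0.949). Adamts12 was followed by Kirrel3 (0.905), an adhesion protein, Ephb4 (0.896), an ephrin receptor, and Ercc2 (0.879), a helicase of DNA repair and transcription. Kirrel3 was at 139.9, 55.4 and 20.5 CPM in mural and 19.3, 26.7 and 38.5 CPM in cumulus cells. The values for Adamts15, Fbln5 (0.890), Ren1 (0.887) and Mgat3 (0.873), come from a gene of very few counts.

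The other ADAMTS genes moved in both directions too. The table holds 11, of which 10 were tested, and of these 4 rose and 2 fell in mural cells at 4 h, 1 rose and 4 fell at 12 h against 0 h, and 0 rose and 6 fell from 4 to 12 h. That 0 was also 0 at an unadjusted edgeR p under 0.05 and by DESeq2 and limma voom. In cumulus cells 3 rose and 2 fell at 4 h, 2 rose and 4 fell at 12 h against 0 h, and 3 rose and 5 fell from 4 to 12 h. Over all tested genes, the mural shares called higher and lower were 22.8 and 22.3%, 21.6 and 19.0%, and 18.3 and 16.1%. The cumulus shares in the same order were 25.0 and 22.8%, 31.2 and 32.9%, and 29.2 and 31.3%. With 10 genes tested, nothing particular to these genes is read from the counts. Adamts3, which also trims procollagens and takes part in the activation of VEGF-C, was transient in mural cells at 0.814, 22.0 and 8.86 CPM, with a log2 change of 4.75 ± 0.40 at 4 h (adjusted p = 3.03e-08) and -1.31 ± 0.34 from 4 to 12 h (adjusted p = 0.00576). Adamts7, which like Adamts12 can cut COMP, was at 47.3, 60.3 and 24.2 CPM in mural and 11.3, 29.9 and 37.1 CPM in cumulus cells. Its log2 change at 12 h was -0.97 ± 0.11 in mural (adjusted p = 1.56e-06) and 1.72 ± 0.12 in cumulus cells (adjusted p = 6.10e-10), and the difference of those changes was 2.69 ± 0.16 (adjusted p = 2.41e-09). Both genes thus ended higher in cumulus than in mural cells at 12 h. Adamts6 fell from 67.7 to 24.9 CPM in mural (log2 change -1.44 ± 0.15, adjusted p = 3.00e-07) and from 59.6 to 41.4 CPM in cumulus cells at 12 h (-0.53 ± 0.14, adjusted p = 0.00420). Adamts19 fell from 112 to 19.9 CPM in cumulus cells by 12 h (-2.49 ± 0.15, adjusted p = 1.78e-10) and from 56.1 to 25.9 CPM in mural cells. Adamts17 was at 1.62 to 5.74 CPM in the group means, and the remaining members of the family were under 5 CPM in every group.

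ADAMTS-like genes encode related proteins that lack the protease domain. All 7 were tested, and 0 rose and 1 fell in mural cells at 4 h, 3 rose and 0 fell at 12 h against 0 h, and 3 rose and 0 fell from 4 to 12 h. In cumulus cells 0 rose and 2 fell at 4 h, 3 rose and 4 fell at 12 h against 0 h, and 3 rose and 3 fell from 4 to 12 h. Of these 4 counts of 0, that of cumulus cells at 4 h was 1 at an unadjusted edgeR p under 0.05 and 1 by DESeq2 (Thsd4 at the unadjusted p), and that of mural cells at 12 h against 0 h was 1 by limma voom. Over these comparisons 16.1 to 22.8% of all tested genes were called per direction in mural cells and 22.8 to 32.9% in cumulus cells. Adamtsl2 fell in cumulus cells from 30.2 to 9.74 and 3.48 CPM (log2 change at 12 h -3.12 ± 0.30, adjusted p = 5.77e-08). Adamtsl1 was at 26.1 CPM, 58.7 ± 54.0 (SD, n = 3) and 0.516 CPM in cumulus cells, a spread at 4 h almost as large as the mean. Adamtsl4 was at 4.75, 2.49 and 16.1 CPM in mural and 0.747, 0.647 and 4.00 CPM in cumulus cells, Papln at 4.13, 2.85 and 7.56 and at 3.24, 1.83 and 11.4 CPM, and Thsd4 at 3.66, 5.31 and 8.18 and at 4.91, 11.0 and 0.531 CPM. In the cumulus groups the sum of 10 oocyte markers was 349.6 to 1787, 1028 to 6414 and 3.49 to 7.45 CPM. Like Adamtsl1 and Thsd4 there, it was lowest at 12 h. The part of oocyte RNA in the cumulus changes of ADAMTS-like genes was not tested.

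The substrates and partners of these proteases are given from lists drawn up by function. Of 19 genes of aggregating proteoglycans, hyaluronan and link proteins 15 were tested. In mural cells 7 rose and 1 fell at 4 h, 6 rose and 2 fell at 12 h against 0 h, and 0 rose and 5 fell from 4 to 12 h (0 at an unadjusted edgeR p under 0.05, 0 by DESeq2 and 1 by limma voom). In cumulus cells 6 rose and 3 fell at both times against 0 h, and 3 rose and 6 fell from 4 to 12 h. Against these counts, 16.1 to 22.8% of all tested genes were called per direction in mural cells and 22.8 to 32.9% in cumulus cells. Vcan, which encodes versican, was at 1373, 13251 and 4805 CPM in mural cells (log2 change at 4 h 3.27 ± 0.22, adjusted p = 1.36e-09) and at 202, 1009 and 1466 CPM in cumulus cells (2.32 ± 0.21, adjusted p = 6.22e-08). Has2, the hyaluronan synthase, was at 0.677, 103 and 6.35 CPM in mural and 1.78, 527 and 59.5 CPM in cumulus cells. Tnfaip6, which links hyaluronan to inter-alpha-inhibitor chains, was at 1.07, 1657 and 131 CPM in mural and 0.471, 1411 and 962 CPM in cumulus cells. In mural cells the versican RNA was thus highest at 4 h, when Adamts9 was already high, while Adamts1 and Adamts4 were highest at 12 h.

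Of 16 inhibitors, endocytic receptors, activators and cofactors, 8 rose and 2 fell in mural cells at 4 h, 11 rose and 4 fell at 12 h against 0 h, and 7 rose and 5 fell from 4 to 12 h. In cumulus cells 9 rose and 2 fell at 4 h, 11 rose and 0 fell at 12 h against 0 h (also 0 at an unadjusted edgeR p under 0.05 and by DESeq2 and limma voom), and 11 rose and 1 fell from 4 to 12 h. The shares of all tested genes called per direction were 16.1 to 22.8% in mural and 22.8 to 32.9% in cumulus cells. Timp1 was at 4.46, 103 and 569.6 CPM in mural and 4.37, 79.6 and 737 CPM in cumulus cells, with log2 changes at 12 h of 6.99 ± 0.16 (adjusted p = 5.45e-15) and 7.40 ± 0.17 (adjusted p = 4.01e-15). Timp3, whose protein inhibits ADAMTS4 and ADAMTS5, was at 1.27, 7.57 and 44.9 CPM in cumulus cells (log2 change at 12 h 5.16 ± 0.31, adjusted p = 1.27e-10). Sdc4, a heparan sulfate proteoglycan of the cell surface, rose late, with 62.8 CPM in mural cells at 4 h against 758 CPM at 12 h and 42.4 against 509.9 CPM in cumulus cells. Pcsk5, a furin-like convertase, was at 70.8, 1306 and 651 CPM in mural and 64.8, 635 and 2049.9 CPM in cumulus cells (mural log2 change at 4 h 4.21 ± 0.18, adjusted p = 5.37e-12). Sdc1 was at 93.9, 1603 and 2477 CPM in mural and 182, 3608 and 9045 CPM in cumulus cells.

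Of 11 fibrillar procollagens and their processing genes, 5 rose and 1 fell in mural cells at 4 h, 5 rose and 2 fell at 12 h against 0 h, and 4 rose and 2 fell from 4 to 12 h. In cumulus cells 5 rose and 3 fell at 4 h, 6 rose and 4 fell at 12 h against 0 h, and 7 rose and 2 fell from 4 to 12 h. For this list and the next, 16.1 to 22.8% of all tested genes were called per direction in mural cells. In cumulus cells that share was 22.8 to 32.9%. While Adamts2 fell in cumulus cells, Col5a1, a chain of type V collagen, was at 2.88, 10 and 205 CPM there (log2 change at 12 h 6.16 ± 0.25, adjusted p = 1.32e-12). Pcolce, an enhancer of the C-proteinase, was at 5.98, 4.62 and 67.8 CPM, and Bmp1, that C-proteinase, rose from 68.6 to 206 CPM at 4 h in cumulus cells (log2 change 1.59 ± 0.10, adjusted p = 8.65e-10). Col1a1 (2.76, 0.809 and 4.34 CPM), Col1a2 (2.97, 0.377 and 0.625 CPM) and Col3a1 (1.14, 0.703 and 4.41 CPM) were low in cumulus cells. There Col1a2 was called lower at 12 h (-2.18 ± 0.63, adjusted p = 0.00588) and Col3a1 higher (1.99 ± 0.47, adjusted p = 0.00142). In mural cells at 12 h Col1a1 (317 to 155 CPM) and Col1a2 (329 to 126 CPM) were called lower, as was Adamts2, and Col5a1 (96.1 to 273 CPM) higher. Of 10 fibrillins and microfibril proteins, 0 rose (0 also at an unadjusted edgeR p under 0.05, by DESeq2 and by limma voom) and 3 fell in mural cells at 4 h, 2 rose and 5 fell at 12 h against 0 h, and 3 rose and 5 fell from 4 to 12 h. In cumulus cells 2 rose and 3 fell at 4 h, 5 rose and 4 fell at 12 h against 0 h, and 4 rose and 4 fell from 4 to 12 h. Comp, whose protein ADAMTS12 can cut, fell in mural cells, as Adamts12 did, from 413 to 188 and 13.4 CPM (log2 change at 12 h -4.95 ± 0.39, adjusted p = 1.49e-08). It also fell in cumulus cells, where Adamts12 was not called changed, from 6.08 to 2.08 and 0.459 CPM (-3.72 ± 0.49 at 12 h, adjusted p = 3.94e-06). The difference between the cell types in the change of Comp to 12 h was not called (1.23 ± 0.66, adjusted p = 0.154). Fbn2, a fibrillin gene, was at 52.7, 35.2 and 9.67 CPM in cumulus cells.

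Of 15 hormone-induced regulators, 9 rose and 2 fell in mural cells at 4 h, 9 rose and 2 fell at 12 h against 0 h, and 3 rose and 4 fell from 4 to 12 h. In cumulus cells 9 rose and 3 fell at 4 h, 9 rose and 4 fell at 12 h against 0 h, and 7 rose and 5 fell from 4 to 12 h. Beside these counts and those of the proteases below, 16.1 to 22.8% of all tested genes were called per direction in mural cells. In cumulus cells that share was 22.8 to 32.9%. Pgr, the progesterone receptor, through which Adamts1 is known to be induced in granulosa cells, was at 2.08, 1974 and 4.47 CPM in mural and at 0.144, 70.3 and 0.837 CPM in cumulus cells. Among the 3 times sampled Pgr was thus highest at 4 h and Adamts1 at 12 h in both cell types. Adamts1 was already called higher at 4 h in both. The part of Pgr in the Adamts1 changes was not tested. Runx2, a transcription factor of the RUNX family, was at 10.3, 441 and 620.3 CPM in mural and 1.37, 163 and 460.3 CPM in cumulus cells, with a further rise called from 4 to 12 h in cumulus cells. Of 18 other matrix proteases and their regulators, 7 rose and 4 fell in mural cells at 4 h, 11 rose and 2 fell at 12 h against 0 h, and 6 rose and 6 fell from 4 to 12 h. In cumulus cells 10 rose and 4 fell at 4 h, 12 rose and 3 fell at 12 h against 0 h, and 10 rose and 4 fell from 4 to 12 h. Mmp19, a secreted metalloproteinase, was at 1.06, 7.42 and 137 CPM in mural and 0.231, 1.37 and 39.2 CPM in cumulus cells, a late rise in both cell types like that of Adamts1 in mural cells. Plau, the urokinase-type plasminogen activator, rose in mural cells from 77.6 to 711 CPM at 4 h and was at 265 CPM at 12 h.

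The medians of these lists are set beside the median of all tested genes, which was -0.05 in mural and -0.09 in cumulus cells for 12 h against 0 h on the log2 scale. In the same order of cell types the median was -0.70 and -0.27 for the other ADAMTS genes and 0.87 and -2.25 for the ADAMTS-like genes. It was 1.08 and 0.43 for the proteoglycan, hyaluronan and link protein genes and 1.16 and 1.97 for the inhibitors, receptors, activators and cofactors. For the procollagens and their processing it was 0.75 and 1.99, and for the fibrillins and microfibril proteins -1.03 and 0.42. The regulators had 1.08 and 1.80 and the other matrix proteases 0.97 and 1.15. No list was tested against the other genes.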

How the data were processed

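Poly(A)-enriched RNA of mural granulosa and cumulus cells was sequenced, 3 libraries in each of 6 groups, with a stranded kit per the labels' protocols. The deposited values are raw counts of unique gene reads. Per the series' design text, the authors aligned and counted in CLC Genomics Workbench with default parameters, and the build is GRCm38 per the submitters' processing notes. Its version, the annotation and the setting for strand were not given in the sources used here.

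Counts were tested in R 4.3.3 with edgeR 4.0.16 (quasi-likelihood, robust, TMM factors from 0.849 to 1.18). The expression filter with a minimum count of 10 left 19941 genes with 99.96% of counts. A single model with 6 group means over 18 libraries gave 11 comparisons, adjusted over all genes by Benjamini-Hochberg at 0.05. The fit was run on counts simulated from its own estimates of spread, for mural cells at 4 h against 0 h only. That run does not cover the cumulus libraries that stood apart. SE is the log2 change divided by the square root of F. Nothing says that libraries came from separate animals. The p-values therefore reflect only how much these libraries vary, and that variation could be technical. Counting floors cover counting error only.

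Alternatives were limma 3.58.1 (voom), DESeq2 1.42.0, library totals, no filter, only the groups compared, a replicate block, and leaving libraries out. Lengths are from GENCODE M21. Named were all members, other ADAMTS and ADAMTS-like genes with a group mean of at least 5 CPM, up to 3 called genes per list and comparison within a cell type with the largest change and at least 20 CPM, and 3 genes by likeness. Col1a1, Col1a2 and Col3a1 were added from their list outside that rule. The members, lists and markers were chosen with earlier results of these data known. Some results that these rules would include are not reported here.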

Additional observations from a re-analysis of the deposited data

Results flagged for a closer look

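The change from 0 to 4 h differed between cumulus and mural cells, by the interaction test of edgeR, for 4 members, with a log2 difference (cumulus minus mural) of -2.83 for Adamts9, -1.88 for Adamts4, -1.11 for Adamts5 and -1.0 for Adamts2. The change from 0 to 12 h differed for 5 members, by 2.50 for Adamts12, -2.48 for Adamts5, -2.15 for Adamts1, -1.52 for Adamts2 and -0.75 for Adamts4. Adamts12 was the single member whose cumulus change lay above its mural change by this test. The test for a single outlying sample in a group needs at least 4 libraries and was not run on these groups of 3.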

How the results depend on the processing

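Over 8 members, 11 comparisons and the alternatives run, 1131 of 1204 results kept their direction and side of the threshold, 33 became called, 22 were no longer called and 18 changed sign. The changes of sign were all of uncalled values. With library totals Adamts15 was at -0.14 in mural and Adamts12 at -0.11 in cumulus cells at 4 h against 0 h. With only the groups compared that Adamts12 value was -0.02 and Adamts2 between the cell types at 0 h was 0.01, which was 0.00 with DESeq2. Leaving out single libraries gave ranges from -0.07 to 0.63 (Adamts15, mural 4 h), -0.05 to 0.14 (Adamts12, cumulus 4 h), -1.52 to 4.92 (Adamts15, cumulus 12 h against 0 h), -0.28 to 0.04 and -0.35 to 0.01 (Adamts5 and Adamts10, cumulus 12 h against 4 h) and -0.10 to 0.06 (Adamts2 between the cell types at 0 h). For the difference of the changes the ranges were -0.23 to 0.52 (Adamts1, 4 h) and -0.77 to 5.68 (Adamts15, 12 h). The causes were not tested. The counts of Adamts15 limit what depth can show.

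Members called differed by over 1.5 times from the reported counts as follows. In cumulus cells from 4 to 12 h 2 were lower without both cumulus libraries that stood apart, and 1 to 2 without single libraries (2 without replicate 3 at 4 h). For the difference of the changes to 4 h 1 was higher with library totals, DESeq2, the replicate block or without both libraries, 0 to 1 without single libraries (1 without mural replicate 2 at 0 h or cumulus replicate 1 at 4 h), and 2 were lower by limma voom. For that to 12 h 2 were higher by limma voom, with only the groups compared, the replicate block or without both libraries, and 1 to 2 without single libraries (2 without mural replicate 1 at 12 h). Over all genes, cumulus cells at 4 h had 9532 calls, 5509 with only those groups and 6193 by limma voom. The difference of the changes to 4 h had 2800, with 1564, 1618 and, without cumulus replicate 2 at 4 h, 4272. The causes were not tested.

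Library totals moved the median log2 change of all genes from -0.06 to -0.38 in mural cells at 4 h and from -0.05 to -0.22 at 12 h, and the share of calls that were higher from 50.6 to 29.1% and from 53.2 to 39.9%. For mural 12 h against 4 h that share went from 53.2 to 66.8%, for cumulus cells from 52.3 to 41.0% at 4 h and from 48.7 to 38.1% at 12 h, between the cell types at 12 h from 46.7 to 35.6%, and for the difference of the changes to 4 h from 48.3 to 69.3%. Called members kept their direction there.

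No animal or batch is named in the labels, so whether same-numbered replicates were paired is not known. Correlations of their deviations ran from -0.29 to 0.375. In no comparison between 2 groups did all 6 samples correlate best with their own number (1 to 5 did, with 5 in cumulus against mural cells at 4 h). These values cannot exclude a pairing. With the replicate block 3 results of members became called (Adamts12 at 0.72 and Adamts10 at 0.47 in the difference of the changes to 4 and 12 h, and Adamts12 at 0.39 in cumulus cells at 12 h) and 0 were lost.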
